A study of Homo sapiens with 4 samples.

Results

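The enzymes described here make cholesterol, and 7 genes were considered: ACAT2, HMGCS1, IDI1, FDPS, FDFT1, SQLE and DHCR7. They were matched by symbol to the platform annotation of the array, which gave 7 probes for 6 of the 7 genes, of 30968 probes and 15240 named genes in all. ACAT2 had 2 probes and the other 5 genes had 1 each. No probe is named here for HMGCS1, and none carries an older symbol of it in the RefSeq table. No receptor or other uptake gene is among the 7, so the values below concern synthesis. The genes were selected on the intensities of these same 4 arrays, since the list was proposed with them known, and which pair of arrays was used is not recorded. All differences between arrays are therefore given as descriptions without a test.

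RNA came from H1299, an established line of human non-small cell lung cancer, stably transfected with a plasmid in which the promoter of Oct4 or of nestin drives GFP. Both lines were selected with neomycin, and neither is said to be a single clone. The 4 populations were Oct4/GFP (+), Oct4/GFP (−), Nestin/GFP (+) and Nestin/GFP (−), with 1 array each, and the Oct4 line and the Nestin line below mean both populations of that name. The GFP (+) cells had been sorted for high GFP, and RNA was prepared 24 h later. For the GFP (−) populations the labels say only that the cells were negative for the reporter, while the methods describe sorting of the transfected lines for high GFP or no GFP. All were grown in the same serum-containing medium. The deposited intensities are linear whole numbers after subtraction of a background. The median over all probes was 4 to 9 on the 4 arrays, and 19.5% to 29.1% of the probes lay above a background limit of 3 noise SD, an intensity of 13.9 to 22.7 depending on the array, where the noise SD is the root mean square of the values below 0. Oct4/GFP (−) was the dimmest array: the 3980 probes above background on all 4 arrays had a median of 81 on Oct4/GFP (+), 40 on Oct4/GFP (−), 177 on Nestin/GFP (+) and 134 on Nestin/GFP (−). The part that this difference in brightness has in the deposited values cannot be told apart from differences in RNA, and in such bulk samples fewer cells of a kind and less RNA per cell cannot be told apart either. The arrays were therefore quantile normalized, so that every array had the same set of values, and fold differences are on that scale unless called deposited. Where a probe was above its limit on only 1 array of a pair, the fold is a bound against the lowest normalized value above the limit on the other array. VIM and CDH2, genes of a mesenchymal carcinoma line, were above background on all 4 arrays. The epithelial genes KRT7, KRT19 and CDH1 were on none, and neither were the leukocyte genes PTPRC and CD3E. Of the lung epithelial genes SFTPB was above background on all 4 arrays and NKX2-1 on none. Of the hepatocyte genes, from a cell type in which the pathway is high, no probe was above background on more than 2 arrays. NES, which encodes nestin, was not above background on any array, and no probe is named here for POU5F1, which encodes Oct4.

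Cholesterol is built from acetyl-CoA through mevalonate, the isoprenoid diphosphates and squalene. Its supply is held steady by a feedback loop. When the sterol content of the endoplasmic reticulum falls, SCAP escorts the SREBP proteins to the Golgi, proteases release their transcription factor part, and that part switches on genes of synthesis and uptake, often beside NF-Y bound at a CCAAT box. Growing tumor cells need cholesterol for new membranes, and the isoprenoid branch supplies lipid anchors for membrane-bound proteins.

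Promoter windows were searched because the 7 genes are textbook targets of one pathway. Any link between the letters found and the values of the arrays was not tested. RefSeq promoter windows (GRCh38.p14, 250 bases before to 50 after each start) were on hand for HMGCS1, IDI1, FDPS and DHCR7, in 8 windows because 3 of these genes have more than 1 start. None was used here for ACAT2, FDFT1 and SQLE. The letters CCAAT, read on both strands, were in 5 of the 8 windows, against 34.6% of 35116 windows of all genes. Each of the 4 genes had them in at least 1 window, but the share of all genes that do so was not computed. Some windows of HMGCS1 and of IDI1 overlap each other. The sterol element core TCACNCCAC was in 0 of the 8 and in 1.13% of all windows, and the shorter CACNCCAC, which lies within it, was in 1 of the 8, a window of IDI1, and in 5.87% of all. A match is a run of letters and not a bound site. The windows printed for HMGCS1 and FDPS lie before the annotated gene, and those of IDI1 and DHCR7 lie inside it, at a start within its span. One match of each gene is shown with 12 bases on either side, 5′ to 3′ on the strand of the gene, with the box in capitals. ATTGG is CCAAT read from the other strand, and the distance is that of the leftmost capital.
HMGCS1, chr5:43313496-43313524, minus strand, 100 bases before the start: ctaccggccgcgATTGGctgtgggagcca
IDI1, chr10:1049220-1049248, minus strand, 117 bases before the start: atcgaaagcgtgATTGGctggcggcgtct
FDPS, chr1:155308732-155308760, plus strand, 122 bases before the start: gacggccagcagCCAATcagcgcggctca
DHCR7, chr11:71448425-71448453, minus strand, 48 bases before the start: ggtccgcctccgATTGGcaggcaatcgct

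The 2 ACAT2 probes stand for the start of the pathway. ACAT2 is the cytosolic thiolase that joins acetyl-CoA units to acetoacetyl-CoA, and is not the sterol esterifying enzyme SOAT2, to which the same abbreviation is given in some texts. The annotation carries a symbol only, so which of these a probe was designed for rests on that symbol. Probe 1 of ACAT2 had deposited intensities of 148 on Oct4/GFP (+) and 45 on Oct4/GFP (−), against 295 on Nestin/GFP (+) and 473 on Nestin/GFP (−). It was above background on all 4 arrays, and both Nestin arrays were brighter than both Oct4 arrays. After normalization this order did not hold, since the level was 218.75 on Oct4/GFP (+) and 128 on Oct4/GFP (−), against 172.25 on Nestin/GFP (+) and 371.5 on Nestin/GFP (−). Probe 2 of ACAT2 had 6 on Oct4/GFP (+) and 11 on Oct4/GFP (−), both under the limit, against 144 on Nestin/GFP (+) and 211 on Nestin/GFP (−). The 2 probes gave the same direction in the GFP (−) cells and opposite directions in the GFP (+) cells. In Oct4/GFP (−) cells probe 1 was 2.90-fold lower and probe 2 at least 5.42-fold lower than in Nestin/GFP (−) cells. In Oct4/GFP (+) cells probe 1 was 1.27-fold higher and probe 2 at least 5.17-fold lower than in Nestin/GFP (+) cells. On the deposited values probe 1 was 1.99-fold lower there, so its direction depends on the normalization. For scale, 276 genes had 2 or more probes measured on both GFP (+) arrays. The log2 differences of probes sharing a gene varied with an SD of 0.93, against 0.98 for all probes measured on both. Probes of 1 gene thus varied nearly as much as probes at large, and the other genes below rest on 1 probe each. ACAT2 overlaps TCP1 in the RefSeq table, and whether a probe lies in the shared stretch is not known here.

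IDI1, the isomerase that turns isopentenyl diphosphate into dimethylallyl diphosphate, had the same order on both scales for the lines. Its probe had 129 on Oct4/GFP (+) and 72 on Oct4/GFP (−), against 830 on Nestin/GFP (+) and 1112 on Nestin/GFP (−). All 4 values lay well over the limits, and the values of the lines did not overlap. In the GFP (+) populations IDI1 was 2.50-fold lower in the Oct4 line than in the Nestin line, and 6.43-fold lower on the deposited values. In the GFP (−) populations it was 3.89-fold lower in the Oct4 line, and 15.4-fold lower on the deposited values. Its rank within its own array, which needs no normalization, was at percentile 95.7 on Oct4/GFP (+) and 96.3 on Oct4/GFP (−), against 98.1 on Nestin/GFP (+) and 99.1 on Nestin/GFP (−). FDPS, which makes farnesyl diphosphate, had 14 on Oct4/GFP (+) and 4 on Oct4/GFP (−), against -1 on Nestin/GFP (+) and 16 on Nestin/GFP (−). Every value lay under the limit, so FDPS has no fold.

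FDFT1, squalene synthase, commits farnesyl diphosphate to sterols, and its probe was above background on 3 of the 4 arrays. It had 44 on Oct4/GFP (+) and 8 on Oct4/GFP (−), against 39 on Nestin/GFP (+) and 71 on Nestin/GFP (−). The 8 lay under the limit, and the values of the lines overlapped. Among the GFP (+) populations FDFT1 was 2.04-fold higher in the Oct4 line after normalization but 1.13-fold higher on the deposited values. The log2 difference was 0.17 with each array centred on its median, 0.90 with a loess and 0.46 with an offset of 50. The call at 2-fold ended there. It held, at 1.30, when the arrays were centred on the probes detected everywhere.

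SQLE, squalene epoxidase, the oxygen-requiring step that follows, was above background in the Nestin line alone. It had 8 on Oct4/GFP (+) and 6 on Oct4/GFP (−), both under the limit, against 201 on Nestin/GFP (+) and 178 on Nestin/GFP (−). SQLE was lower in the Oct4 line by at least 6.88-fold in the GFP (+) and at least 4.59-fold in the GFP (−) populations. Its rank was at percentile 54.2 on Oct4/GFP (+) and 59.0 on Oct4/GFP (−), against 93.5 on Nestin/GFP (+) and 94.3 on Nestin/GFP (−). SQLE and probe 2 of ACAT2 were above background on both Nestin arrays and on neither Oct4 array, a pattern held by 901 of the 12749 probes above background anywhere (7.07%). At a limit of 10 noise SD the bounds of these 2 probes lay under 2-fold in both comparisons.

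DHCR7 reduces 7-dehydrocholesterol to cholesterol at the end of the pathway. It had 25 on Oct4/GFP (+) and 15 on Oct4/GFP (−), against 87 on Nestin/GFP (+) and 212 on Nestin/GFP (−). The values of the lines did not overlap, but the 15 stood just over its limit of 13.9. In the GFP (−) cells DHCR7 was 4.82-fold lower in the Oct4 line, a fold that at a limit of 10 noise SD becomes a bound under 2-fold (-0.31 on the log2 scale). In the GFP (+) cells it was 1.90-fold lower in the Oct4 line. It passed 2-fold with each array centred on its median (-1.80 on the log2 scale) and with a loess (-1.06). It did not pass when the arrays were centred on the probes detected everywhere (-0.67) or with the offset of 50 (-0.42).

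Of the 7 probes, 4 were above background on Oct4/GFP (+) and 3 on Oct4/GFP (−), against 6 on Nestin/GFP (+) and 6 on Nestin/GFP (−). Over all probes the shares were 27.9% on Oct4/GFP (+) and 19.5% on Oct4/GFP (−), against 26.3% on Nestin/GFP (+) and 29.1% on Nestin/GFP (−). Both Nestin arrays exceeded both Oct4 arrays for 5 of the 7 on the deposited values and for 4 after normalization. Of the 12749 probes above background anywhere, 51.1% did so on the deposited values and 24.5% after normalization.

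**Figure D1:**
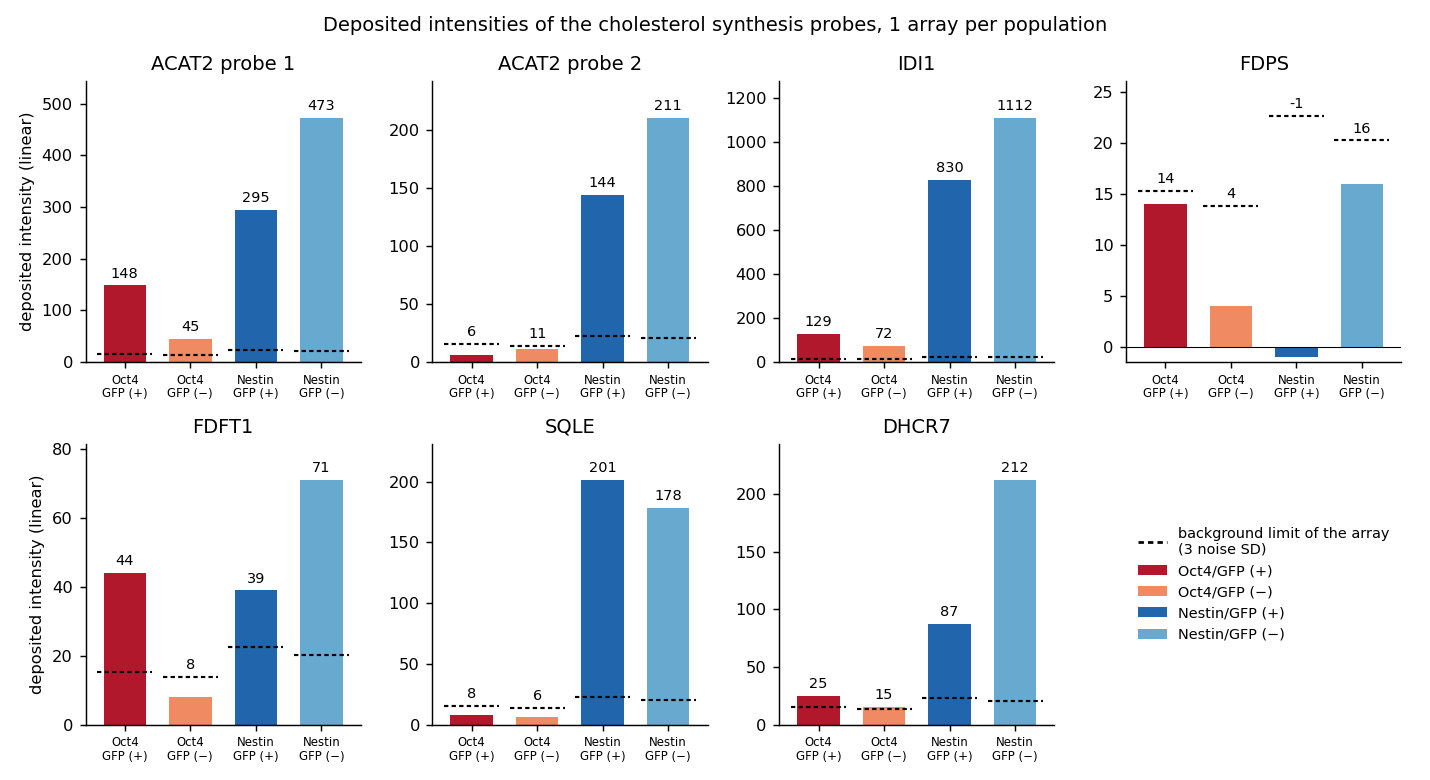
Deposited linear intensity (y axis, own scale in each panel) of the 7 probes on the 4 arrays, 1 bar per population with its value above it, and the background limit of each array as a dashed line. IDI1, SQLE, DHCR7 and both ACAT2 probes are brighter on both Nestin arrays than on both Oct4 arrays, while FDFT1 overlaps and FDPS lies under every limit.

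**Figure D2:**
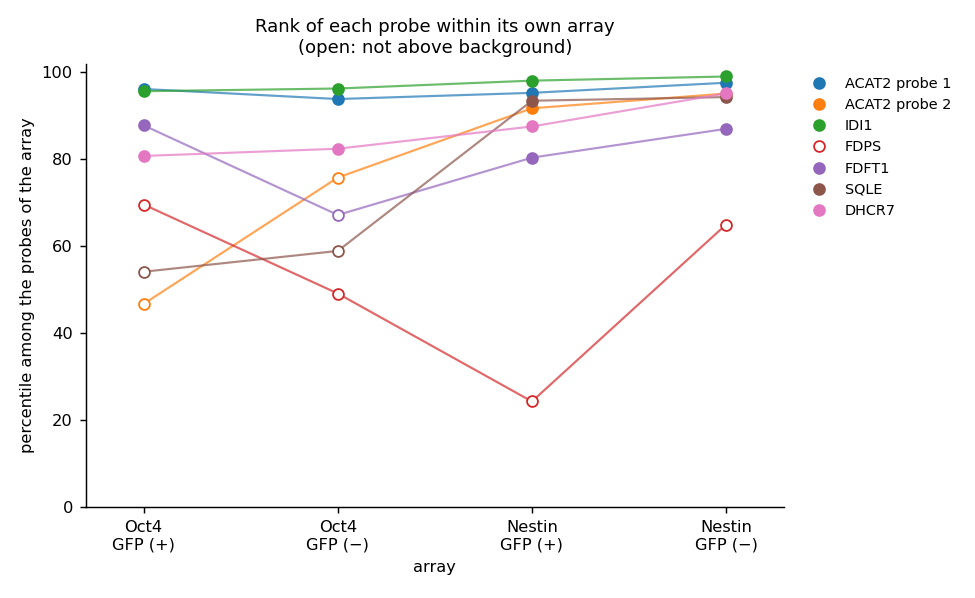
Percentile of each probe among the 30968 probes of its own array (y axis) on the 4 arrays (x axis), with open circles where it was not above background; each line is to be compared with itself. SQLE lies at percentile 54.2 and 59.0 on the Oct4 arrays and at 93.5 and 94.3 on the Nestin arrays.

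The first comparison of the lines took the cells without GFP. Of the 6 probes compared, 5 were more than 2-fold lower in the Oct4 line than in the Nestin line, and 0 were higher. Over all 7704 probes compared, 12.1% were more than 2-fold lower and 24% were more than 2-fold higher (36.1% in either direction). That split depends on the scaling, with 26.8% lower and 8.14% higher when each array was centred on its median and 67.5% lower and 0.225% higher on the deposited values. The sixth probe, FDFT1, was at least 1.76-fold lower, a bound that says nothing on whether 2-fold was passed. SQLE, probe 2 of ACAT2 and FDFT1 were under the limit on Oct4/GFP (−), so as bounds they could be counted only as lower. The 3 measured probes (IDI1, DHCR7 and probe 1 of ACAT2) had a median log2 difference of -1.96, against 0.18 for all measured probes. With the bounds at their values the medians were -2.08 for the 6 probes and 0.08 for all. The normalization also moved the median over all probes, bounds included, which was 0.08 under quantile normalization and -1.47 on the deposited values. Less that median, the median of the measured probes of these genes lay at -2.04 under quantile normalization, -2.35 on the deposited values, -2.20 with centring on the array median and -2.10 with centring on the 3980 probes detected everywhere. It was smaller in size with a limit of 5 noise SD (-1.78, over 2 probes), with the loess (-1.66, over 3) and with the offset of 50 (-1.36, over 7). The dimmest array, Oct4/GFP (−), enters this comparison, and its part in the result was not tested.

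Among the cells with GFP the probes were split. Of 6 probes compared, 3 were more than 2-fold lower in the Oct4 line (IDI1, SQLE and probe 2 of ACAT2) and 1 was higher (FDFT1). Over all 10313 probes compared, 15.3% were more than 2-fold lower and 15.7% were more than 2-fold higher (31% in either direction). Under centring on the array median 44.5% were lower and 3.38% higher, and with centring on the probes detected everywhere 12.2% were lower and 25.6% higher. The 4 measured probes had a median of -0.29 on the log2 scale, against 0.09 for all measured probes. With the bounds of SQLE and probe 2 of ACAT2 included, the medians were -1.12 for the 6 probes and 0.09 for all. IDI1, SQLE and probe 2 of ACAT2 were thus lower past 2-fold in the Oct4 line in both GFP states, 3 of the 6 probes compared in both. Of these, only IDI1 was measured in both states. SQLE and probe 2 of ACAT2 were under the limit on both Oct4 arrays, so as bounds they could be counted only as lower. Among all probes compared in both states, bounds included, 315 of 6730 were lower in this way (4.68%). With 1 array per population, line and array cannot be told apart.

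**Figure D3:**
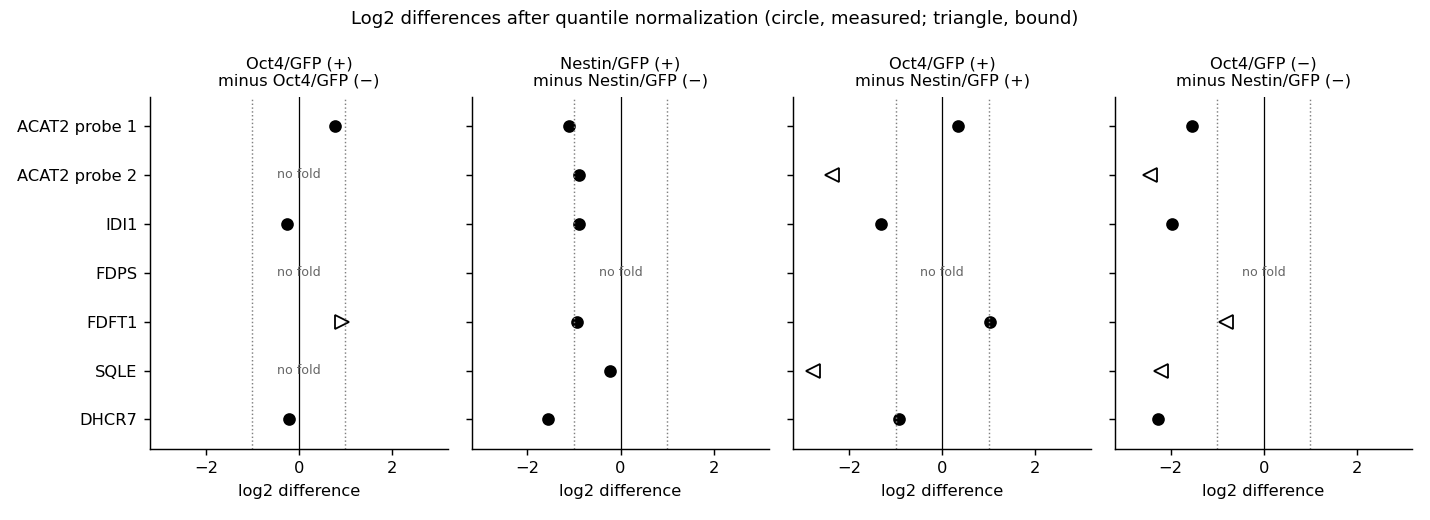
Log2 difference after quantile normalization (x axis) of each probe (y axis) in the 4 comparisons, with circles for measured values, open triangles for bounds pointing away from 0 and dotted lines at 2-fold. In the comparison of the GFP (−) cells all 6 probes with a value lie below 0, from -2.44 to -0.82. The 3 bounds among them could lie only below 0.

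Within the Nestin line, GFP (+) cells were set against GFP (−) cells. All 6 probes above background were lower in the Nestin/GFP (+) cells after normalization, by log2 differences of -1.56 to -0.24, and all 6 were measured on both arrays. Over all 9554 probes compared, 48.9% were below 0. Of the 6, DHCR7 was 2.94-fold lower and probe 1 of ACAT2 was 2.16-fold lower, while 6.23% of all probes were more than 2-fold lower and 7.09% were more than 2-fold higher (13.3% in either direction). IDI1 was 1.85-fold lower, FDFT1 was 1.90-fold lower and probe 2 of ACAT2 was 1.85-fold lower. The probes of ACAT2 were close here, at -1.11 and -0.89 on the log2 scale. SQLE was the nearest to no difference, 1.18-fold lower after normalization and 1.13-fold higher on the deposited values. The median of the 6 was -0.91, against 0.02 for all measured probes. After centring on the array median the 6 had a median of -0.25 where all probes had 0.64, with 28.1% more than 2-fold higher and 2.56% lower, and 0 of the 6 passed 2-fold. The arrays of this comparison are also those of the comparisons between the lines, so the results share samples.

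Within the Oct4 line, 4 probes could be compared and none passed 2-fold in either direction, against 10.8% of all 7775 probes higher and 20.6% lower (31.4% in either direction). In the GFP (+) cells of this line probe 1 of ACAT2 was 1.71-fold higher, FDFT1 was at least 1.89-fold higher, a bound that leaves 2-fold undecided, IDI1 was 1.19-fold lower and DHCR7 was 1.16-fold lower. On the deposited values all 4 were higher in the Oct4/GFP (+) cells, and all probes had a median of 0.81 there, with 2.54% of them more than 2-fold lower and 40.02% higher. The direction of IDI1 and DHCR7 within this line therefore depends on the normalization.

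The rest of the sterol and lipid pathways was taken as 7 lists of 73 genes, of which 60 have a probe named here, 72 probes in all, of which 41 passed the limit on 1 or more arrays. Both probes of SREBF2, which encodes SREBP-2, were below background on all 4 arrays. In the GFP (−) populations 6 of the 32 probes compared were more than 2-fold lower in the Oct4 line and 6 higher, where 12.1% of all probes were lower and 24% higher. Their median was -0.17 on the log2 scale. In the GFP (+) populations 5 of 36 were more than 2-fold higher and 3 lower, where 15.7% of all probes were higher and 15.3% lower, and the median was 0.02.

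In the list of other mevalonate and isoprenoid genes 0 of 3 probes compared passed 2-fold between the GFP (−) cells. Between the GFP (+) cells 1 of 4 was higher past 2-fold. Of all probes, 36.1% passed 2-fold in the former comparison and 15.7% were higher in the latter. MVD, which decarboxylates mevalonate diphosphate and so acts just before IDI1, had 308 on Oct4/GFP (+) and 159 on Oct4/GFP (−), against 599 on Nestin/GFP (+) and 635 on Nestin/GFP (−). After normalization MVD differed by 0.35 on the log2 scale between the GFP (+) cells and by 0.02 between the GFP (−) cells. MVK, mevalonate kinase, had 37 on Oct4/GFP (+) and 25 on Oct4/GFP (−), against 19 on Nestin/GFP (+), under the limit, and 122 on Nestin/GFP (−). In Nestin/GFP (+) cells it was at least 5.18-fold lower than in Nestin/GFP (−) cells, and Oct4/GFP (+) cells had at least 2.62-fold more than Nestin/GFP (+) cells.

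For the steps after squalene, of 5 probes compared in the GFP (−) cells 3 were more than 2-fold lower in the Oct4 line and 0 higher. Over all probes of that comparison 12.1% were lower and 24% higher. The detected probe of CYP51A1, lanosterol demethylase, had 77 on Oct4/GFP (+) and 14 on Oct4/GFP (−), against 96 on Nestin/GFP (+) and 105 on Nestin/GFP (−). It was 2.68-fold lower in the Oct4 line in the GFP (−) populations, where the 14 stood just over the limit of 13.9. The sterol reductase TM7SF2 was 2.55-fold lower and SC5DL, a sterol desaturase now named SC5D, was at least 3.52-fold lower in the same comparison. In the GFP (+) populations 0 of these 3 passed 2-fold, and CYP51A1 was 1.76-fold higher in the Oct4 line. LBR, a nuclear envelope protein with sterol reductase activity, was 3.16-fold lower there, on an Oct4/GFP (+) intensity of 17, just over the limit of 15.3. Between the GFP (−) cells LBR was 1.13-fold higher in the Oct4 line after normalization.

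Regulators of the pathway differed in both directions. INSIG1, which holds SCAP in the endoplasmic reticulum and is itself a target of SREBP, had 27 on Oct4/GFP (+) and 25 on Oct4/GFP (−), against 112 on Nestin/GFP (+) and 44 on Nestin/GFP (−). In the GFP (+) populations it was 2.18-fold lower in the Oct4 line. Without GFP it was 2-fold higher in the Oct4 line after normalization, at the threshold, although the deposited value was lower there. Within the Nestin line it was 2.15-fold higher in GFP (+) than in GFP (−) cells, opposite to the 6 probes of the synthesis genes, and within the Oct4 line it was 2.03-fold lower. After normalization the 2 probes of SREBF1 disagreed in the GFP (−) comparison. In the Oct4 line probe 1 was at least 3.25-fold lower and probe 2 was 2.27-fold higher. The deposited values of both were lower on Oct4/GFP (−) than on Nestin/GFP (−), at 13 against 126 for probe 1 and 138 against 247 for probe 2. MBTPS1 and MBTPS2 encode the proteases that cut SREBP. In the Oct4 line MBTPS1 was at least 4.43-fold lower in the GFP (+) comparison and probe 1 of MBTPS2 at least 3.06-fold higher in the GFP (−) comparison. The MBTPS2 bound rests on an intensity of 19 on Oct4/GFP (−), against 8 on Nestin/GFP (−), and probe 2 of MBTPS2 was above background on no array.

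In the list of lipoprotein uptake and sterol trafficking no probe passed 2-fold between the lines. There were 8 compared in the GFP (−) and 9 in the GFP (+) cells, and 36.1% and 31% of all probes passed in these comparisons. LRP8, SCARB1, NPC2, OSBP and LIPA were among those measured on all 4 arrays, at -0.83 to 0.78 on the log2 scale in the GFP (−) populations. In the list of esterification and efflux, probe 1 of SOAT1, which esterifies cholesterol for storage, was 3.14-fold higher in the Oct4 line in the GFP (−) populations, and ABCA1, a cholesterol exporter, 2.38-fold higher. On the deposited values probe 1 of SOAT1 was lower on Oct4/GFP (−), at 60 against 76 on Nestin/GFP (−). The ABCA1 values were 16 on Oct4/GFP (−) and 21 on Nestin/GFP (−), close to the limits of 13.9 and 20.3 of these arrays. Probe 2 of SOAT1 had no fold in that pair. In the GFP (+) populations it was at least 1.70-fold lower in the Oct4 line, where probe 1 was 2.36-fold higher. Of the fatty acid synthesis genes, probe 2 of ELOVL6, a fatty acid elongase, was 3.14-fold higher in the Oct4 line in the GFP (+) populations, and ELOVL5 at least 2.25-fold lower in the GFP (−) populations. On the branches from farnesyl diphosphate 1 of 4 probes was lower and 2 were higher in the Oct4 line in the GFP (−) populations. Of all probes 12.1% were lower and 24% higher in that comparison. FNTA, a subunit of the protein prenyltransferases, lay at the threshold and was counted as lower. COQ2, of ubiquinone synthesis, was at least 3.45-fold higher after normalization, on deposited values of 21 on Oct4/GFP (−) and 19 on Nestin/GFP (−), near the limits of 13.9 and 20.3. Probe 2 of NUS1, of dolichol synthesis, was at least 2.62-fold higher, on 17 and 15 in the same order. Probe 1 of NUS1, measured on all 4 arrays, was 1.21-fold lower, and the other NUS1 probes were above background on no array.

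**Figure D4:**
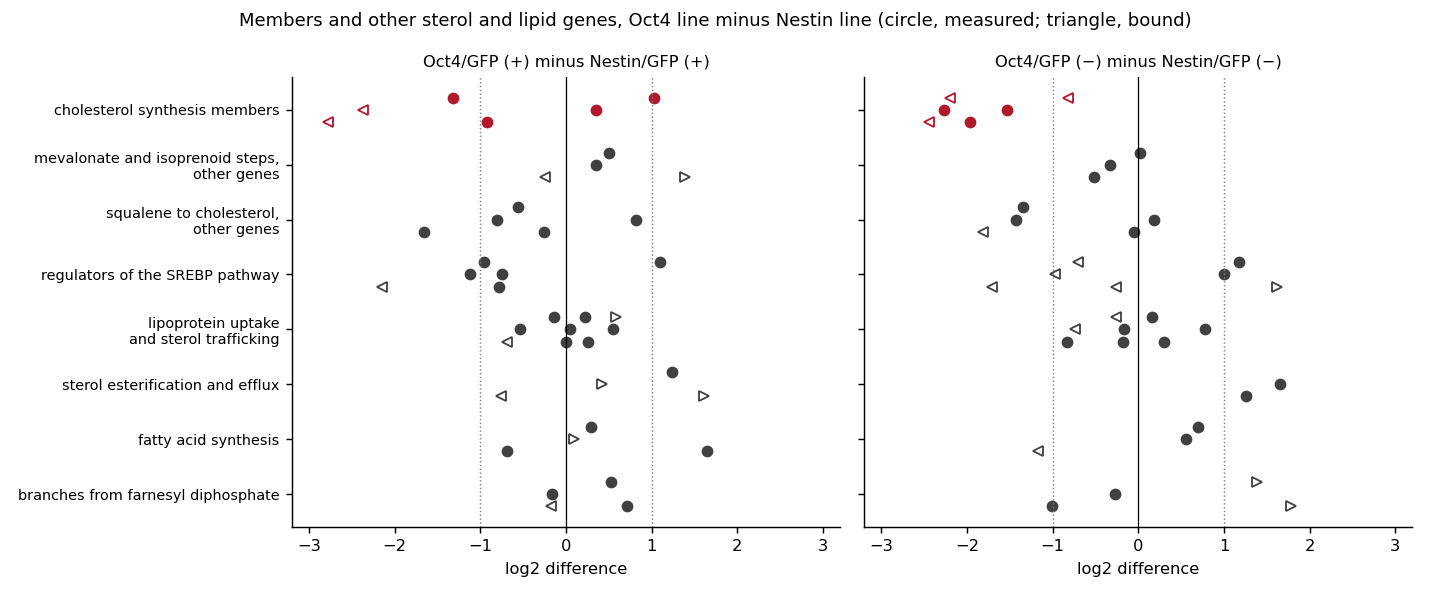
Log2 difference between the lines (x axis) for the probes of the 7 genes (red) and of the 7 lists of other sterol and lipid genes (y axis), in GFP (+) cells (left) and GFP (−) cells (right), with circles for measured values, open triangles for bounds and dotted lines at 2-fold. In the GFP (−) cells 5 of the 6 red points lie past 2-fold to the left, and the points of the other lists lie on both sides.

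**Figure D5:**
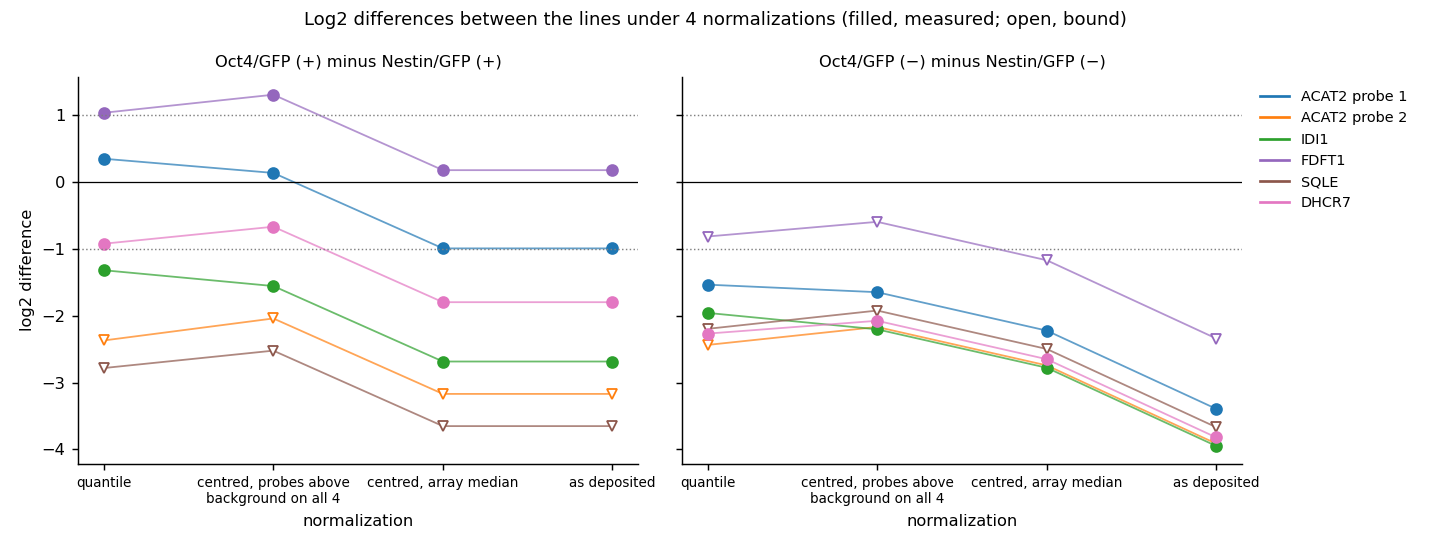
Log2 difference between the lines (y axis) of 6 probes under 4 normalizations (x axis), with filled circles for measured values, open triangles for bounds and dotted lines at 2-fold. In the GFP (−) cells all 6 stay below 0 under each of the 4, which was fixed in advance for the 3 bounds. In the GFP (+) cells probe 1 of ACAT2 lies at 0.34 under quantile normalization and below 0 on the deposited values. Centring on the array median and the deposited values give the same points in the GFP (+) cells.

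The level of each probe above background on all 4 arrays was also set against 2976 probes of other named genes above background on all 4, by the root mean square distance of the log2 levels after removal of each probe's mean. With only 4 arrays the likeness is a description. The nearest to the median of IDI1, DHCR7 and probe 1 of ACAT2 were NDUFA1 at a distance of 0.18, CLPTM1L at 0.19, ERCC3 at 0.23, MRPL44 at 0.23 and C14orf147 at 0.25. NDUFA1, a subunit of respiratory complex I, had 445 on Oct4/GFP (+) and 162 on Oct4/GFP (−), against 1656 on Nestin/GFP (+) and 2907 on Nestin/GFP (−). For single probes the nearest were MRPL44, CLPTM1L and B2M to IDI1, TUBB2B, NDUFA1 and UCK2 to DHCR7, and CLDN10, WDR33 and ANKRD25 to probe 1 of ACAT2. None of these genes is in the lists of sterol and lipid genes.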

How the data were processed

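RNA of 4 populations of H1299 cells was labeled with Cy3 by the authors and hybridized to 1 Phalanx Human OneArray each, read on a GenePix scanner. The authors deposited 1 table of intensity values with a background subtracted. The extraction software, any scaling and any filter were not given in the sources used here. Groups came from the sample titles. Values below 0 gave the noise of each array (their root mean square, called noise SD), and the limit was 3 noise SD (15.3 on Oct4/GFP (+), 13.9 on Oct4/GFP (−), 22.7 on Nestin/GFP (+) and 20.3 on Nestin/GFP (−)). Arrays were quantile normalized, and a value under the limit was replaced by a floor, the smallest normalized value that passed the limit there (17.25, 30.5, 18.5 and 16.25 in that order). A probe above the limit on neither array, or with a bound in the wrong direction, has no fold. Counts past 2-fold took measured values and bounds, and all probes compared were counted in the same way. With 1 array per population no test across arrays was run. Precision is limited by having 4 arrays.

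The 7 genes, the 7 lists and the rules for naming genes were chosen with earlier results of these data known. The rule named every probe of the 7 genes, up to 4 genes of a list past 2-fold, SREBF2 and INSIG1 in any case, and the 5 genes nearest to the median profile and 3 nearest to each probe. MVD and the uptake and trafficking genes were named after their values were seen. Some listed genes are not reported here. Alternatives were centring on the array median or on probes above background on all 4 arrays, the deposited values, a loess of each pair (span 0.3), an offset of 50 without a limit, limits set at 2, 5 or 10 noise SD, the brightest probe of a gene, measured probes only, and thresholds of 1.5-fold and 4-fold. The steps were tested on simulated arrays. Scripts ran under Python 3.11.15 (matplotlib 3.10.9, numpy 2.4.6, statsmodels 0.14.6 and pandas 2.3.3).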

Additional observations from a re-analysis of the deposited data

Results flagged for a closer look

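The comparison of GFP (+) with GFP (−) cells ran in opposite directions in the 2 lines for 2 probes, and the difference between the lines was not tested because each population has 1 array. Probe 1 of ACAT2 had a log2 difference of 0.77 in the Oct4 line and -1.11 in the Nestin line. FDFT1 had a bound of 0.92 in the Oct4 line and a measured -0.93 in the Nestin line, and its Oct4/GFP (−) intensity of 8 was under the background limit. IDI1 and DHCR7 had the same direction in both lines after normalization.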

How the results depend on the processing

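No paired analysis was possible because each population has a single array with the same replicate number. Between the GFP (−) cells the number of probes past 2-fold, 5 of 6, was 2 at a limit of 10 noise SD, 3 with measured probes only and 3 at 4-fold, and all of these were lower in the Oct4 line. The median of -1.96, over 3 probes, was -2.65 after centring on the array median and -3.82 on the deposited values. With the offset of 50 it was -1.36, but over all 7 probes, so the set of probes differs too. Between the GFP (+) cells the number past 2-fold, 4 of 6, was 1 at a limit of 10 noise SD, 2 with measured probes only and 2 at 4-fold. The median of -0.29 was -1.40 after centring on the array median and -1.40 on the deposited values. Those 2 settings are the same in this comparison, because both arrays have a median intensity of 7. Within the Nestin line the number, 2 of 6, was 0 after centring on the array median, 1 on the deposited values, 1 with the offset, 5 at 1.5-fold and 0 at 4-fold, and the median of -0.91 was -0.25 after centring on the array median. Within the Oct4 line the number, 0 of 4, was 2 on the deposited values, 1 with the loess, 1 at a limit of 2 noise SD and 2 at 1.5-fold, and the median of -0.21 was 0.84 on the deposited values and 0.42 with the loess. Of 184 values of single probes under the alternatives, 154 stayed on their side of 2-fold, either in the same direction whatever the size or with a turn of sign smaller than the SD between probes of a gene (0.54 to 0.93), 13 no longer passed it, 12 passed it in addition and 5 turned sign by more. Sizes among the 154 could move far, as for IDI1 in the GFP (−) comparison, at -1.96 after quantile normalization and -3.95 on the deposited values, and for IDI1 within the Nestin line, at -0.89 and, after centring on the array median, -0.06. Within the Oct4 line DHCR7 was at -0.21 and, with the loess, 0.42. Some of the 154 were fixed in advance. A probe still above the limit on both arrays keeps its fold when the limit changes or only measured probes are taken. For IDI1 in the GFP (−) comparison the value was -1.96 under all of these settings. A further 8 values came from probes without a fold under the settings of the report. Signal over background limits FDFT1, DHCR7, SQLE and probe 2 of ACAT2 on the Oct4 arrays, where the intensities were 6 to 44.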
